A study of Mus musculus with 18 samples.

Results

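The 8 genes described here are the even-skipped homeobox genes Evx1 and Evx2 and 6 transcripts from the Hox clusters that are annotated as noncoding: Evx1os, Gm53, Gm28309, Hotair, Hotairm1 and Hottip. They were chosen by gene symbol, among 53465 genes in the table, with earlier results of these data known, so their regional pattern is given as a description. The samples were 18 libraries from 9 mouse embryos at embryonic day 9 with 20 to 24 somites, made from poly(A) RNA of dissected tissue. Each embryo gave a posterior piece, which held the axial bud and its 10 to 12 newest somites, and an anterior piece, which held the older somites. Of the embryos, 5 were controls and 4 were DKO, in which Meis1 and Meis2, genes for TALE homeodomain cofactors of Hox proteins, were conditionally deleted by Delta1Cre, a Cre recombinase under the control of Dll1. The labels do not give the alleles of the controls, whether they carried the Cre, or the strain. Dll1 is active in presomitic mesoderm and the tail bud, so that tissue outside its lineage could keep both genes. The groups were posterior control (n = 5), posterior DKO (n = 4), anterior control (n = 5) and anterior DKO (n = 4), and the study asked how the Meis genes act in patterning of the axis from front to back.

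Evx1 and Evx2 encode homeodomain proteins related to even-skipped of Drosophila. They lie beyond the posterior end of the HoxA and HoxD clusters, and Evx1 is known as a gene of the primitive streak and tail bud and, later, of a class of spinal interneurons. Hox genes are switched on in sequence along each cluster as the body axis extends, with the posterior end last, and many noncoding transcripts arise between and opposite them. Hotair is known from work on chromatin regulators, Hottip is transcribed at the posterior end of HoxA, and Hotairm1 is transcribed at the other end of the same cluster.

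In the GRCm38 annotation, Evx1 lies on chromosome 6 from 52313498 to 52318378 on the plus strand, and Evx1os on the minus strand from 52308389 to 52314832. They share 73 exonic bases, at the start of Evx1. Hottip (52262775 to 52267603, plus strand) and Hotairm1 (52156902 to 52162119, plus strand) lie on the same chromosome, and Hottip is 1894 bases from Hoxa13. Evx2 lies on chromosome 2 from 74652991 to 74659557 on the minus strand, 8752 bases from Hoxd13. Gm28309 lies on chromosome 2 from 74683446 to 74694194 on the plus strand and overlaps Hoxd11 and Hoxd10. Gm53 lies on chromosome 11 from 96251105 to 96264868 on the plus strand between Hoxb13 and Hoxb9, 6588 bases from the latter. Hotair lies on chromosome 15 from 102944062 to 102947730 on the minus strand between Hoxc12 and Hoxc11.

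The windows of 250 bases before the Evx1 and Evx2 starts are shown because the deleted genes encode factors that bind TGACAG. They are from the RefSeq table of GRCm38.p6, which had an entry for 4 of the 8 genes (Evx1, Evx2, Evx1os and Hottip). The Evx1 window is chr6:52313248-52313497 on the plus strand and the Evx2 window is chr2:74659558-74659807 on the minus strand, each written 5′ to 3′, with any TGACAG in capitals.
Evx1: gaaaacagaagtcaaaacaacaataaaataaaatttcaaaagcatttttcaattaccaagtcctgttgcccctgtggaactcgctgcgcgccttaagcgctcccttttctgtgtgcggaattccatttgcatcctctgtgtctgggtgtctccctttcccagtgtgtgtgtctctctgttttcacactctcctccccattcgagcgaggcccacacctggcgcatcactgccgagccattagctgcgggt
Evx2: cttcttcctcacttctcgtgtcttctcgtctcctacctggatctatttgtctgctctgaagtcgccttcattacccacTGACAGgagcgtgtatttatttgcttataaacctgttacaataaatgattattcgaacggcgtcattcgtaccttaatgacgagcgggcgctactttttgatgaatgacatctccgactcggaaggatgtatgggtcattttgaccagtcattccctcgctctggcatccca
The Evx2 window holds TGACAG at −172 from the start, on the gene's own strand, and the Evx1, Evx1os and Hottip windows hold none on either strand. Of the 32851 promoter windows of that length in the table, 15.9% hold it on either strand. The 4 windows held none of the other motifs searched on both strands. These were TTTATG, known from CDX factors and present in 10.8% of promoter windows, AGGTCA, a half-site of retinoic acid receptors (14%), TGATTNAT, known from PBX with HOX factors (2.8%), and TCACACCT, known from T-box factors (1.1%). A match is a string of letters and no evidence of binding.

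Overlap with other genes limits what a count can be assigned to. The Gm28309 transcript has 3 exons and 623 bases, of which 559 (89.7%) are also exonic in Hoxd11 or Hoxd10 on the same strand, so only the 64 bases of exon 1 and the 2 splice junctions are its own. They are shown here, 5′ to 3′ on the plus strand, from the GENCODE transcript. In the first, exon 1 (chr2:74683446-74683509) is in capitals and is followed by the start of exon 2. In the second, the end of exon 2 is followed by the start of exon 3 in capitals.
Gm28309 exons 1 and 2: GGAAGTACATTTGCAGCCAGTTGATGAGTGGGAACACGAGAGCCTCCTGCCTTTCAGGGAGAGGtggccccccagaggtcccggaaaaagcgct
Gm28309 exons 2 and 3: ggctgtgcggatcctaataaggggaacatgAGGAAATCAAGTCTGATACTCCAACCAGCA
A read of 61 bases inside exon 2 is equally compatible with Hoxd11. Of Hoxd11, Gm28309 and Hoxd10, at least 2 had fractional expected counts in each of the 9 posterior libraries, and the 3 genes summed to a whole number in 4 of them (within 0.011 counts). The values of Gm28309 are therefore uncertain estimates of how reads were divided between the 3 genes.

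Evx1 and Evx1os are on opposite strands, and their counts were fractional in 6 of 9 posterior libraries (5 of 5 control and 1 of 4 DKO) while their sum was whole in 9 of 9. Reads were thus divided between genes on opposite strands in those libraries. The shared bases are 2.5% of the Evx1 exons and 2.4% of the Evx1os exons. Of the 1025 exonic bases of Hotairm1, 43.1% are shared with other annotated genes. Where strands were not separated, reads of the sense and antisense gene cannot be told apart.

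**Figure D1:**
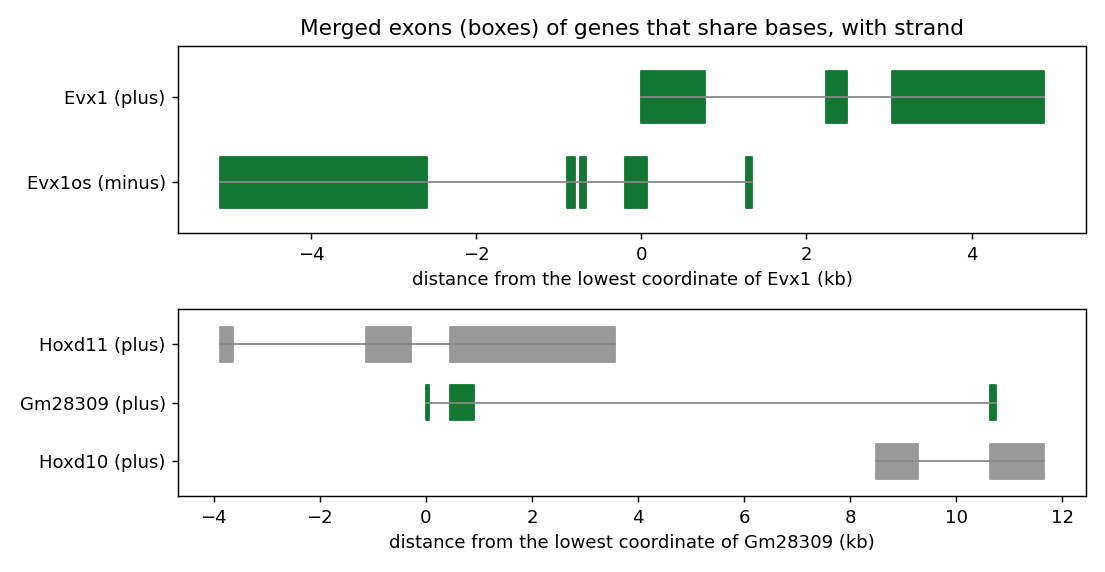
Merged exons (boxes) and spans (lines) of genes that share exonic bases, by distance in kb from the lowest coordinate of Evx1 (top) or Gm28309 (bottom), with strand in brackets; green marks the genes described here and grey the Hox genes. Evx1os overlaps the first exon of Evx1 by 73 bases, and exons 2 and 3 of Gm28309 lie inside exons of Hoxd11 and Hoxd10.

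Several facts of the libraries touch the results. Totals ranged from 12.7 to 38.2 megacounts of expected counts. Control embryo 1 is labelled female, but both its libraries held Y-linked reads (summed level 151 and 164 CPM, against at most 0.95 CPM in the other libraries with that label), and values without this embryo are given below. Anterior control 3, the most advanced control at 24 somites, held more reads of posterior Hox genes than the other anterior libraries: 73.6 expected counts of Hoxd10 against 0 to 7, and 207 of Hoxd9 against 1 to 16. Reads of the deleted genes remained in DKO libraries, with Meis1 at 57.6 ± 11.9 CPM (SD, n = 4) in posterior DKO and 84.5 ± 15.5 CPM (n = 5) in posterior control, and Meis2 at 99.5 ± 11.5 and 143 ± 16.5 CPM; gene counts do not show which exons these reads cover. The axial bud was marked in the posterior libraries by 15 genes including T, Tbx6 and Cdx4, whose summed level was 634 to 1140 CPM there and 118 to 133 CPM in the anterior libraries.

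Of the 8 genes, 6 were present in every posterior library and at or near 0 in every anterior library, Hotairm1 had similar levels in both pieces, and Hottip was barely detected. CPM are counts per megacount of the library, scaled between libraries by TMM, edgeR's default factors. A call is an adjusted p below 0.05 in edgeR's quasi-likelihood test with Benjamini-Hochberg adjustment over all genes tested. In controls 5 of 6 genes tested were called higher in the posterior piece, where 12.1% of all genes tested were, and in DKO embryos 6 of 7, where 8.76% were; since the pattern was in view when the genes were chosen, nothing is read from these counts. In bulk tissue, fewer cells of a type and less RNA per cell cannot be told apart.

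**Figure D2:**
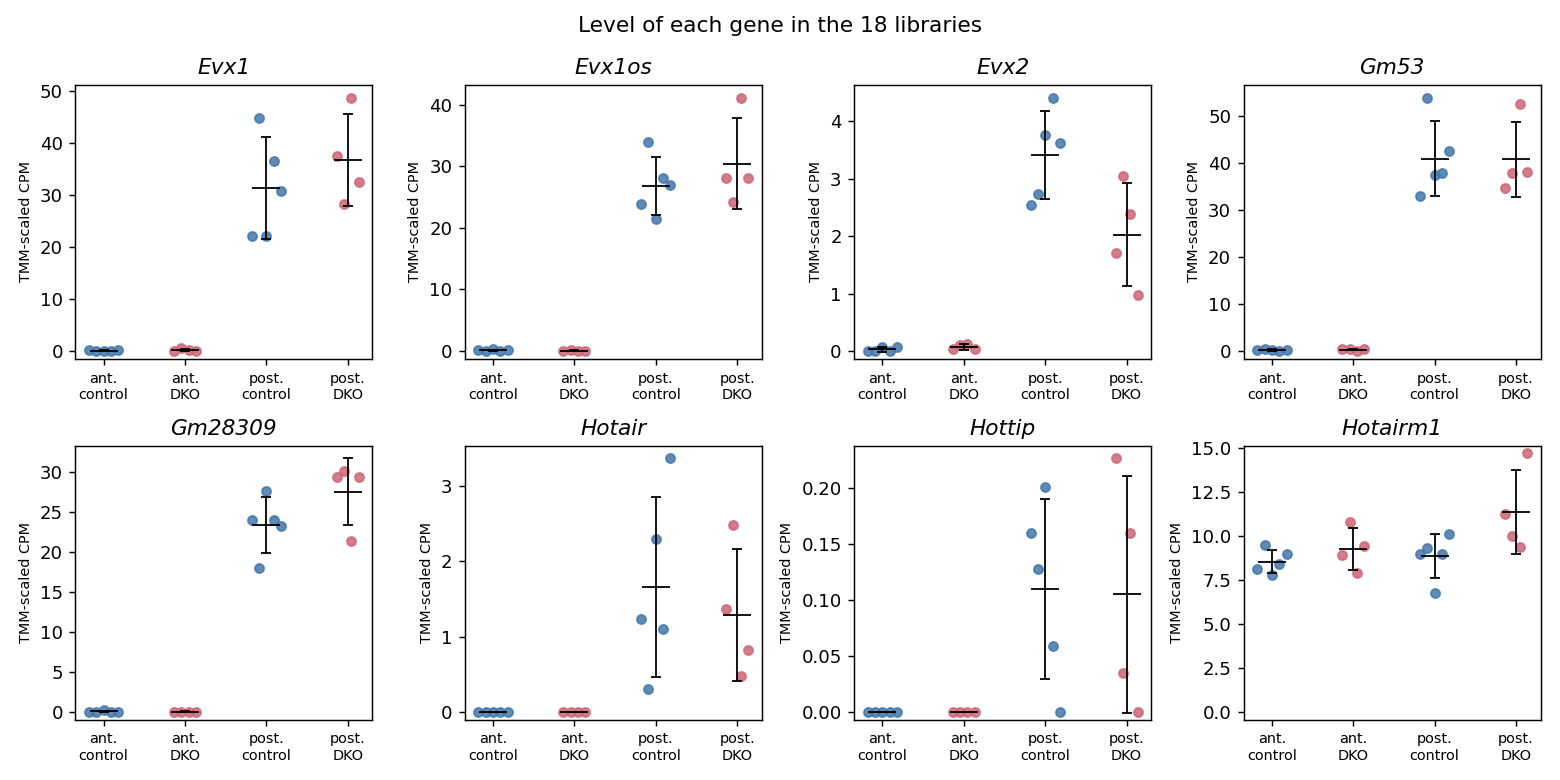
TMM-scaled CPM of each gene (linear axes that differ between panels) in the 18 libraries by piece and genotype; points are libraries, long ticks are group means and bars are ± SD (n = 5 control and n = 4 DKO per piece). Evx1, Evx1os, Evx2, Gm53, Gm28309 and Hotair are near 0 in the anterior libraries, and control and DKO points overlap in every panel with reads.

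Evx1 stood at 22.0, 44.8, 22.1, 36.5 and 30.7 CPM in posterior controls 1 to 5, and at 37.5, 28.3, 48.6 and 32.4 CPM in posterior DKO 1 to 4. Control 2 and DKO 3, both with 20 somites, had the highest level in their groups. The groups overlapped, with 1 of 4 DKO libraries above the highest control. In the anterior libraries Evx1 had 0 to 4 expected counts in controls and 1 to 10 in DKO, and the 10 counts were in DKO 2. Pooled over libraries, Evx1 was 344 times higher in the posterior controls (95% exact interval 174 to 797, for counting error only, from 8 anterior counts) and 225 times higher in the posterior DKO (138 to 393, from 16 anterior counts). Single embryos weigh on these ratios: in controls it was 618 without control 1 and 219 without control 2, and in DKO 528 without DKO 2. Anterior control 3, which carried posterior Hox reads, had 1 count of Evx1.

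Evx1os, the antisense transcript that begins inside Evx1 and runs away from it, lay close to Evx1 in level. Its posterior values were 23.8, 33.9, 21.4, 28.1 and 27.0 CPM in controls 1 to 5 and 28.2, 24.1, 41.1 and 28.1 CPM in DKO 1 to 4. The same 20-somite libraries, control 2 and DKO 3, were the highest. The ratio of Evx1 to Evx1os in CPM was 1.14 ± 0.17 (SD, n = 5) in posterior controls, from 0.925 to 1.32, and 1.21 ± 0.0826 (n = 4) in DKO. Anterior libraries held 0 to 4 counts of Evx1os, and the pooled posterior level was 266 times higher in controls (95% exact interval 140 to 581, from 9 anterior counts) and 493 times higher in DKO (226 to 1350, from 6). The ratio was 424 without control 3 and 177 without control 2, and in DKO, where 4 of the 6 counts were in DKO 2, it was 1290 without that embryo.

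Evx2 was the weaker of the Evx genes. It stood at 2.54, 2.74, 3.77, 4.42 and 3.62 CPM in posterior controls 1 to 5 and at 1.70, 3.04, 2.40 and 0.976 CPM in DKO 1 to 4. DKO 4 was the lowest and 3 of 4 DKO libraries lay below the lowest control, while DKO 2 lay within the control range. Per kilobase of exon, the mean posterior level of Evx2 was 0.815 CPM in controls against 10.8 CPM for Evx1. Within libraries, the CPM of Evx1 was 9.53 ± 4 times that of Evx2 in posterior controls (SD, n = 5) and 21.2 ± 9.79 times in DKO (n = 4), with ranges of 5.86 to 16.4 and 9.29 to 33.2 that overlapped. Anterior libraries held at most 2 counts of Evx2, and the pooled ratio was 150 in controls (95% exact interval 41.1 to 1240, from 2 anterior counts) and 35.1 in DKO (15.8 to 96.8, from 6). These intervals overlap, and without control 3 or control 5 the control ratio rested on 1 anterior count and was 250 or 244.

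Gm53, the noncoding gene between Hoxb13 and Hoxb9, had the highest mean CPM of the 8 in both posterior groups. It stood at 33.0, 53.9, 37.4, 37.8 and 42.6 CPM in posterior controls 1 to 5 and at 34.8, 37.8, 52.4 and 38.1 CPM in DKO 1 to 4. As for Evx1, the highest libraries were those of the 20-somite embryos, control 2 and DKO 3. Every anterior library had reads of Gm53, 2 to 12 counts each, and the pooled posterior level was 162 times higher in controls (95% exact interval 107 to 259) and 118 times higher in DKO (84.1 to 170).

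Gm28309, with the uncertainty given above, had 24.0, 17.96, 27.6, 23.9 and 23.2 CPM in posterior controls 1 to 5 and 29.4, 30.1, 21.3 and 29.3 CPM in DKO 1 to 4. Here the 20-somite libraries were the lowest in their groups, and 3 of 4 DKO libraries lay above the highest control. For comparison, Hoxd11 stood at 45.4 ± 11.3 CPM (SD, n = 5) in posterior controls and Hoxd10 at 41.4 ± 2.59 CPM. At most 2.94 counts of Gm28309 fell in any anterior library, in anterior control 3, and the pooled ratio was 696 in controls (95% exact interval 238 to 3380, from 3 anterior counts) and 1400 in DKO (387 to 11600, from 2), with intervals that overlap. All anterior control counts were in control 3; without it the control level was at least 137-fold higher against a floor of 3 counts in each anterior library. In DKO the ratio was 900 without DKO 1.

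Hotair, between Hoxc12 and Hoxc11, had 0 counts in each of the 9 anterior libraries, including anterior control 3. Its posterior values were 1.23, 0.299, 2.29, 1.09 and 3.37 CPM in controls 1 to 5 and 1.36, 2.48, 0.479 and 0.822 CPM in DKO 1 to 4, from 7 to 71 expected counts. The 20-somite libraries were again the lowest, and the groups overlapped throughout. Against a floor of 3 counts in each anterior library, the posterior mean was at least 9.40-fold higher in controls and at least 9.94-fold higher in DKO. Its neighbours Hoxc12 and Hoxc11 had posterior control levels of 0.668 ± 0.535 and 18.1 ± 5.21 CPM (SD, n = 5).

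Hottip had 0 counts in the 9 anterior libraries and at most 6 counts in a posterior library, with 0 in control 5 and DKO 4. Its posterior mean was 0.110 CPM in controls and 0.105 CPM in DKO, under the level of 3 counts in an average library, so no fold is given, and edgeR's filter on low counts left it out of the tests. Without that filter its posterior log2 fold change, DKO against control, was −0.12 (adjusted p = 0.967 by edgeR), from at most 6 counts in a library. Hoxa13, 1894 bases away, was at 5.84 ± 1.27 CPM (SD, n = 5) in posterior controls and 0 in the anterior libraries.

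Hotairm1 was the member present along the whole axis. It stood at 8.14, 9.497, 7.81, 8.39 and 8.97 CPM in anterior controls 1 to 5 and at 8.91, 10.8, 7.90 and 9.46 CPM in anterior DKO 1 to 4. The posterior values were 9.01, 9.36, 6.77, 8.98 and 10.1 CPM in controls and 11.2, 10.0, 9.39 and 14.8 CPM in DKO. All 4 groups overlapped, and posterior DKO 4 was the highest of the 18 libraries. The ratio of group means, posterior over anterior, was 1.03 in controls and 1.23 in DKO.

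On levels per kilobase of exon in posterior controls, the order was Gm28309 at 37.5 ± 5.57 CPM (SD, n = 5), Evx1 at 10.8 ± 3.39, Gm53 at 10.3 ± 2.01, Evx1os at 8.90 ± 1.57, Hotairm1 at 8.64 ± 1.22, Hotair at 0.826 ± 0.593, Evx2 at 0.815 ± 0.185 and Hottip at 0.0381 ± 0.0279. Neighbours among Evx1, Gm53, Evx1os and Hotairm1 differed from one another by less than their SDs, as did Hotair and Evx2. The place of Gm28309 rests on a length of 623 bases that is mostly shared with Hoxd11 and Hoxd10.

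The first question was whether the loss of Meis1 and Meis2 changed these genes in the posterior piece. No change passed the test: 0 of 7 genes tested were called, where 0.0126% of all 15936 genes tested were called (2 genes). At an unadjusted p below 0.05 there were 2 of 7, Evx2 lower and Hotairm1 higher in DKO, against 11% of all genes tested. DESeq2 called 156 genes of the table and none of the 7. The median log2 fold change of the 7 genes was 0.18, against 0.01 over all genes tested.

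Evx2 had the estimate farthest from 0, −0.74 on the log2 scale (SE 0.300, 95% interval −1.40 to −0.08), with an adjusted p of 0.446 by edgeR. Its nearest Hox gene, Hoxd13, the last gene of HoxD, stood at 34.5 ± 9.20 CPM in the 5 posterior controls (mean ± SD) and at 24.8 ± 7.17 CPM in the 4 DKO, and its estimate was −0.47 (SE 0.220, adjusted p = 0.461 by edgeR). The estimates for Hoxd12, Hoxd11 and Hoxd10, farther into the cluster, were 0.11, 0.06 and 0.16. The allantois and hindlimb field list, which holds Tbx4, had 1 of 5 tested genes above 0 and none called, and its summed level was 87.0 to 136 CPM in posterior controls and 71.1 to 136 CPM in DKO; its part in the Evx2 values was not tested.

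The Hotairm1 estimate was 0.36 on the log2 scale (SE 0.157, 95% interval 0.01 to 0.70), with an adjusted p of 0.451 by edgeR. Without DKO 4, the highest library, it was 0.20 (adjusted p = 0.773 by edgeR). Of the DKO libraries, 2 of 4 lay above the highest control. Its neighbour Hoxa2 had an estimate of 0.13. In the anterior piece Hotairm1 was the only one of the 8 with enough reads for a test, and its DKO estimate was 0.10 (SE 0.107, adjusted p = 0.733 by edgeR), where 0.0394% of all genes tested were called.

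The remaining estimates in the posterior piece had 95% intervals that included 0. Evx1 had a log2 fold change of 0.23 (95% interval −0.26 to 0.72), Evx1os 0.18 (−0.19 to 0.54), Gm28309 0.24 (−0.05 to 0.53), Gm53 −0.01 (−0.35 to 0.33) and Hotair −0.30 (−1.62 to 1.01). For Evx1 the interval spans a level from 0.835 to 1.65 times that of the controls, and for Hotair from 0.326 to 2.01 times. Without control embryo 1, Evx1 stood at 0.12, Evx2 at −0.84, Gm28309 at 0.24 and Hotairm1 at 0.36, and none of the 7 was called. Without DKO 3, the 20-somite DKO embryo, Evx1 stood at 0.06 and Evx1os at 0.00, and without control 2, the 20-somite control, at 0.40 and 0.28. Leaving out control 5 turned the Hotair estimate to 0.11, and that of Gm53 turned positive when control 2, control 5, DKO 1, DKO 2 or DKO 4 was left out, reaching 0.11 without control 2.

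**Figure D3:**
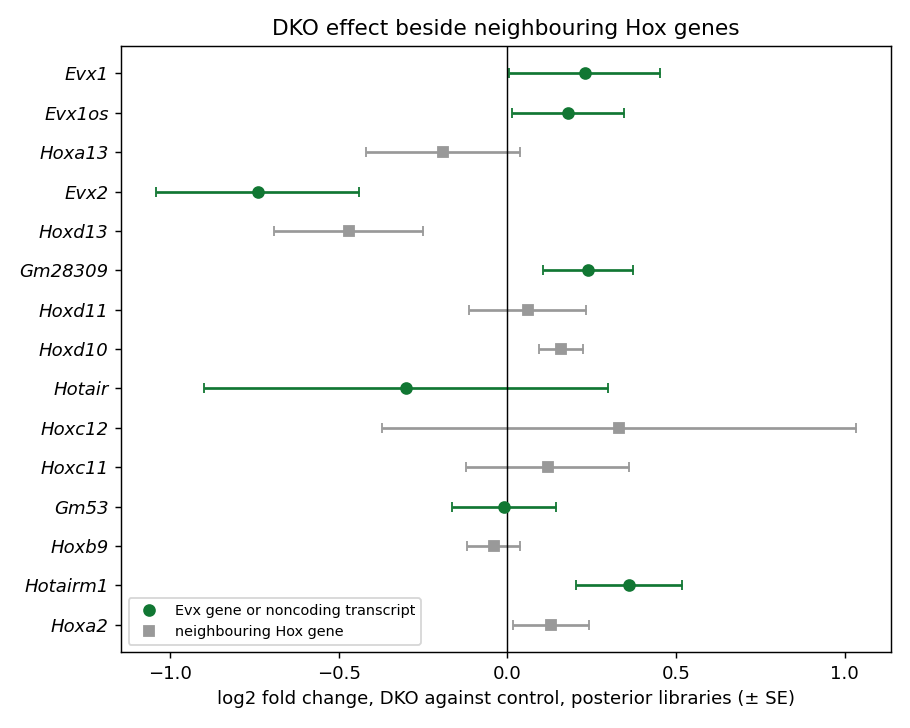
Log2 fold change of posterior DKO against posterior control (n = 4 and n = 5 libraries) with ± SE bars for 7 genes described here (green circles) and neighbouring Hox genes (grey squares), ordered by locus. Evx2 (−0.74) and Hoxd13 (−0.47) are the lowest, Hotairm1 (0.36) is the highest, and none passed the adjusted test.

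The other genes of the clusters were counted for the same comparison. Of the HoxA genes 9 of 11 tested had estimates above 0, of HoxB 7 of 9, of HoxC 7 of 9 and of HoxD 8 of 9, with 0 called in each and medians of 0.19, 0.12, 0.17 and 0.11 against 0.01 over all genes. Of 44 other annotated noncoding genes in the clusters, 18 had enough reads, 15 of these were above 0 and none was called, with a median of 0.25. Among marker lists of tissues, estimates above 0 numbered 15 of 15 for axial bud (median 0.18), 11 of 12 for neural tube (0.30), 7 of 8 for hindgut and gut endoderm (0.30), 4 of 7 for spinal interneurons (0.27) and 1 of 9 for differentiating somite (−0.36), none called. Their summed levels in posterior controls and DKO were 634 to 1020 against 707 to 1140 CPM for axial bud, 312 to 429 against 364 to 474 CPM for neural tube, 113 to 167 against 149 to 183 CPM for hindgut, 63.2 to 83.7 against 58.4 to 88.4 CPM for spinal interneurons, and 297 to 403 against 151 to 318 CPM for differentiating somite. The spinal interneuron list was mixed: Lhx1 (−1.32), Pax2 (−1.14) and Isl1 (−0.39) were below 0, and Lhx5 (0.57), Tubb3 (0.44), Elavl3 (0.32) and Foxd3 (0.27) above. In controls Lhx1 and Pax2 had higher means in the posterior than in the anterior piece, and Elavl3 and Tubb3 lower ones. Its median and sum therefore need not follow a single cell type. The part of tissue makeup in the values of the 8 genes was not tested.

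The difference of the DKO effects between the pieces was called for 0 of 7 genes and for 0% of 16428 genes tested by edgeR, with 0 of the 7 genes and 3.45% of all genes at an unadjusted p below 0.05; DESeq2 called 7 genes of the table. The estimate with the smallest p was that of Evx2, −1.98 on the log2 scale (SE 0.999, adjusted p = 0.999 by edgeR), and it rests on at most 2 anterior counts per library.

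The second question was whether the genes varied with the stage of the embryo, since the posterior libraries span 20 to 24 somites. Stage goes with sex as read from sex-linked transcripts, as given below, so the slopes cannot tell stage from sex. In a fit with genotype as a term, the posterior slope on somite number was called for 0 of 7 genes by edgeR, where 0.0126% of genes tested were called. At an unadjusted p below 0.05 there were 5 of 7, against 6.42% of all genes tested: Evx1, Evx1os and Gm53 had negative slopes and Gm28309 and Hotair positive ones. DESeq2 called 3 of the 7, Evx1, Evx1os and Hotair.

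Evx1 had a slope of −0.23 log2 units per somite (SE 0.0331, adjusted p = 0.116 by edgeR). The 3 libraries with 20 and 21 somites lay at 36.5 to 48.6 CPM and the 5 with 23 and 24 somites at 22.0 to 32.4 CPM, with no overlap, while the 22-somite library, DKO 1, was at 37.5 CPM. The adjusted p was 6.39e-07 with DESeq2, 0.00797 without a filter on low counts, 0.0438 without DKO 4 and 0.072 without control 1. Over the 12 alternatives it ran from 6.39e-07 to 0.858, and the slope from −0.24 to −0.21. Evx1os had −0.16 (SE 0.0287, adjusted p = 0.151 by edgeR), with 28.07 to 41.1 CPM in the earlier and 21.4 to 28.14 CPM in the later libraries, ranges that just overlap; its adjusted p was 0.000178 with DESeq2 and 0.0477 without the filter. Gm53 had −0.11 (SE 0.0388, adjusted p = 0.539 by edgeR) and 37.8 to 53.9 against 33.0 to 42.6 CPM, and its ranges overlapped too.

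Hotair had a slope of 0.58 (SE 0.148, adjusted p = 0.288 by edgeR and 0.0195 by DESeq2). It was at 0.299 to 1.09 CPM in the earlier and 0.822 to 3.37 CPM in the later libraries, and the highest, control 5, has 23 somites. Its neighbour Hoxc12 had 0.69 (SE 0.171, adjusted p = 0.27 by edgeR) and Hoxc11 0.20, and Hoxd12 of the HoxD cluster had 0.61 (SE 0.132, adjusted p = 0.198 by edgeR). Slopes of other posterior Hox genes ran both ways, with Hoxc13 at 0.30, Hoxd13 at 0.13, Hoxa13 at −0.01, Hoxa10 at −0.04 and Hoxc10 at −0.11. Gm28309 had 0.12 (SE 0.0313, adjusted p = 0.341 by edgeR), as did Hoxd11 (0.12), whereas Hoxd10 had 0.02. Evx2 and Hotairm1 had slopes of 0.02 and 0.00 in the posterior libraries, and Hotairm1 had 0.02 in the anterior ones, where 0.0328% of genes tested were called.

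**Figure D4:**
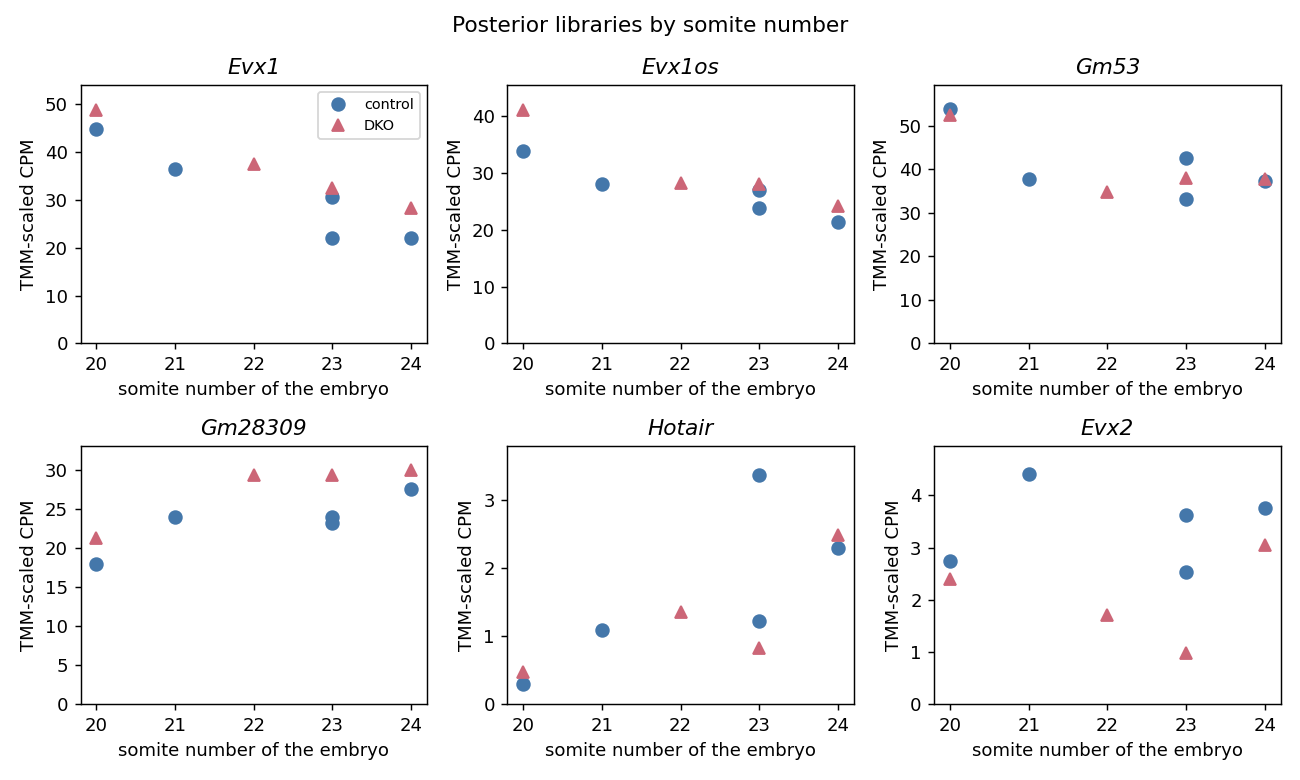
TMM-scaled CPM (linear axes from 0) of 6 genes in the 9 posterior libraries against the somite number of the embryo, with circles for control and triangles for DKO. Evx1 runs from 44.8 and 48.6 CPM at 20 somites to 22.1 and 28.3 CPM at 24, Hotair from 0.299 and 0.479 CPM to 2.29 and 2.48 CPM, and Evx2 shows no such order.

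Slopes on somite number of the marker lists of tissues are given beside these, none of them called. Of the axial bud genes, 0 of 15 slopes were above 0 and 11 were negative at an unadjusted p below 0.05, T at −0.16 and Cdx4 at −0.28 among them, and the summed level was 775 to 1140 CPM at 20 and 21 somites and 634 to 803 CPM at 23 and 24. Of the differentiating somite genes 9 of 9 slopes were above 0 (7 at that p), with sums of 151 to 361 and 264 to 403 CPM, and of the neural tube genes 12 of 12 (6 at that p), with 312 to 379 and 359 to 474 CPM. Of the allantois and hindlimb field genes 0 of 5 slopes were above 0, with sums of 90.0 to 136 and 73.8 to 111 CPM. Hindgut and gut endoderm had 2 of 8 above 0 and spinal interneurons 5 of 7, and the sums of both lists overlapped between stages, at 147 to 167 and 113 to 172 CPM and at 61.9 to 80.3 and 63.4 to 88.4 CPM. Whether the share of axial bud in the dissected piece accounts for the slopes of Evx1, Evx1os and Gm53 was not tested. Somite number was not balanced in other respects: only 3 posterior libraries come from embryos with 20 or 21 somites, and 1 of these is DKO. Somite number also went with sex by reads. Posterior libraries with 20 to 22 somites held Xist, a marker of female cells, at 407 to 664 CPM. Those with 23 or 24 somites, control 1 among them although labelled female, held Y-linked reads at 126 to 173 CPM. Stage and sex therefore cannot be told apart in these slopes.

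The genes most like each member were ranked by Pearson's r of log2 CPM over the 18 libraries among 16428 genes, which mainly follows the difference between the pieces and is given with no p. Evx1 was nearest to Evx1os (0.989), with which it shares reads, and then to Fgf18 and Tbx6 (0.985 each), Tbx6 being a T-box gene of presomitic mesoderm. Evx1os was nearest to Fgf18 and Cyp26a1 (0.993 each), and Gm53 to Tbx6 (0.993), Gad1 (0.992) and Cdx4 (0.991). Evx2 was nearest to Hoxa13 (0.98) and Tbx4 (0.979), Gm28309 to Hoxd11 (0.996), whose reads it shares, and Hotair to Hoxd12 (0.985). Hotairm1 had its highest r with Il17re (0.871).

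After the mean of each group was removed, which leaves the variation among embryos, the r of Evx1 with Evx1os was 0.69 and that of Evx1 with Evx2 was 0.32. Gm28309 was then nearest to Hoxd10 (0.892), which shares exon 3. Hotair was nearest to Olig2 (0.95), a neural progenitor gene, and the r of Hotair with Evx1 was −0.30. These values come from 18 libraries that share embryos in pairs, and they describe these libraries. Hotair had 0 counts in every anterior library, so its own variation lies in the 9 posterior libraries. Evx1, Evx1os, Evx2, Gm53 and Gm28309 had few anterior counts, and a few counts move log2 CPM widely. Evx1, for example, had 0 to 4 anterior counts in controls and 1 to 10 in DKO. The r values that involve these genes, that of Hotair with Evx1 included, therefore rest in part on near-zero anterior counts.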

How the data were processed

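The authors deposited RSEM expected counts per Ensembl gene, not scaled between libraries. Per the submitters' processing notes, CASAVA, cutadapt and RSEM were used with GRCm38; the aligner, the versions and the use of strand are not given in the sources used here. Of 53465 gene identifiers 53274 had a symbol in the gene name table. Rounded counts were fitted with edgeR 4.0.16 under R 4.3.3 (filterByExpr with a minimum count of 10 and a minimum total of 15, TMM, glmQLFit and glmQLFTest), and alternatively with DESeq2 1.42.0. P-values were adjusted over all genes tested. The scripts were tested on simulated data. The members and lists were chosen with earlier results of these data known.

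All 8 members were to be named, with their nearest coding genes, not all of which are reported here, and the genes of highest correlation. Libraries of an embryo were matched by somite number, genotype and sex label. Once group means were removed, their correlation was 0.256 to 0.57 in 9 pairs, against −0.283 to 0.0916 between embryos, over 16428 genes, so the embryo pairs the pieces. Replicates are separate embryos. Folds of genes at 0 in every anterior library were set against a floor of 3 counts per library, and those of genes with a few counts are ratios of pooled counts. The 95% intervals of pooled ratios cover counting error only, since reads were pooled over embryos, and leave out variation among embryos. Reads carry no molecular identifiers. The 95% intervals of fold changes come from edgeR's SE. The alternatives were other size factors, DESeq2, no filter, all libraries in one fit, somite number, the embryo block and leaving out each embryo, which for pooled ratios was chosen after seeing the data. For levels, CPM of the library total was tried.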

Additional observations from a re-analysis of the deposited data

Results flagged for a closer look

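Gm28309 in posterior DKO 3 stood at 21.33 CPM, apart from the other 3 DKO libraries, of which the nearest was at 29.33 CPM; the gap was 0.916 of the range of the group. This embryo had 20 somites, and the 20-somite control was also the lowest of its group at 17.96 CPM. It was the only such value among 24 gene and group combinations with more than 3 counts in some library, where chance marks about 1 in 20.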

How the results depend on the processing

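None of the 7 genes, nor Hottip where it could be tested, was called for DKO against control or for the interaction under any alternative run, and the embryo block left the members called at 5 in controls, 6 in DKO and 0 for the interaction. With that replicate block the numbers of genes called were 5136 in controls, 3004 in DKO and 0 for the interaction, against 3884, 2913 and 0 without it. For the posterior slope the members called were 3 with DESeq2, 2 without the filter and 0 to 1 when an embryo was left out. Over the table, genes called for posterior DKO were 2, and 156 with DESeq2, 14 without the filter, 51 with all libraries in one fit, 7 with somite number as a covariate and 2 to 24 with an embryo left out. For anterior DKO they were 6, and 287, 83, 19, 84 and 1 to 57 in the same order. The interaction gave 0, and 7 with DESeq2 and 0 to 1 with an embryo left out. Posterior slopes gave 2, and 137 with DESeq2, 29 without the filter and 0 to 29; anterior slopes 5, and 342, 162 and 0 to 134. The DKO region comparison gave 1728 to 2550 with an embryo left out, the lowest without DKO 1. The cause of these shifts was not tested.

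Of 240 alternative values of 19 member estimates, 220 kept direction and side of the threshold, 6 posterior slopes passed it, and 14 changed sign before rounding, each with an embryo left out. The ranges with an embryo left out were −0.15 to 0.11 for Gm53 and −0.84 to 0.11 for Hotair in posterior DKO, 0.00 to 0.28 for Evx1os there, −0.10 to 0.08 and −0.06 to 0.05 for the posterior Evx2 and Hotairm1 slopes and −0.02 to 0.06 for the anterior Hotairm1 slope. All 24 levels moved by less than 1 SD with CPM of the library total. The low counts of Hottip, and of 6 members in the anterior piece, limit what could be tested.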
